A study of Homo sapiens and Mus musculus with 16 samples.

Results

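The loci described here are those of KALRN, DCLK1, NAV2, RGS3 and CARMIL1, each taken from 50 kb before to 50 kb after the gene, in the mouse (mm10) and at the human ortholog (hg38). They were chosen by measured values: each mouse gene stood among the protein-coding genes with the most accessible regions listed for a KPC mets cell line and not for the KPC primary tumor cell line. The counts of such mets-only regions are therefore a description of the choice and carry no test. The 5 loci held 139 of the 80843 regions of the mets list, 70 of the 68074 regions of the primary tumor list, 158 of the 118107 regions of the control list and 121 of the 97047 regions of the HNF4G-KO list.

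Accessible chromatin was mapped with a transposase that cuts DNA left free by nucleosomes (ATAC-seq) in 16 samples that formed 4 groups of 4 replicates. The mouse groups were untreated lines derived from KPC mice, a pancreatic cancer model, 1 from a primary tumor and 1 from liver mets, which the study calls isogenic and whose genotype is labelled WT. The human groups were HPAF-II, an established pancreatic adenocarcinoma line, carrying Cas9 as the control (genotype WT), and the same line after CRISPR knockout of HNF4G, a nuclear receptor; the knockout was a pool of 3 single-cell clones, and both arms were CRISPR-Cas9 treated. Each group came as a single list of regions with a score, so no value existed per replicate, no difference has a replicate check, and read depth is unknown. A region was called one-list (mets-only, tumor-only, control-only or KO-only) where not even 1 bp of it overlapped the other list of its pair, and shared otherwise. Scores were turned into percentiles within their own list, where 100 is the strongest region, and 95% Wilson intervals on shares cover counting error only. In bulk libraries such as these, more open cells and more accessibility per cell cannot be told apart.

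Start sites of epithelial markers had regions in every list, but so did some markers of other cell types, so these markers alone do not set the cell type. All 5 epithelial markers examined (EPCAM, CDH1, KRT8, KRT18 and KRT19) had a region within 1 kb of a start site in each of the 4 lists, and neither leukocyte marker (PTPRC, CD3E) had one in any list. Of 3 hepatocyte markers, ALB and APOA2 had none in any list and TTR had one in the control, HNF4G-KO and primary tumor lists but not in mets. Of 2 endothelial markers, CDH5 had none and PECAM1 had one in both KPC lists only. All 3 fibroblast markers (COL1A1, COL1A2, PDGFRB) had a region in both HPAF-II lists, and COL1A1 alone had one in both KPC lists. The edit at HNF4G is not measured by region lists and was not checked here.

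The 5 genes encode proteins of the cytoskeleton or of cell signaling, several of them known from neurons. KALRN is a guanine nucleotide exchange factor that activates small GTPases such as RAC1 and RHOG and shapes dendritic spines. DCLK1 couples microtubule-binding doublecortin domains to a kinase domain and marks tuft cells of the gut and pancreas. NAV2 is a neuron navigator that associates with microtubules during outgrowth of cell processes, RGS3 speeds GTP hydrolysis by G protein alpha subunits and so shortens G protein-coupled receptor signaling, and CARMIL1 binds actin capping protein and regulates actin filament growth at the cell edge. Several of these genes have alternative promoters that give long and short proteins. The short DCLK1 form lacks the doublecortin domains, and short KALRN forms keep only part of the exchange factor.

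The sequences that carry the pattern were read from the genomes on the plus strand unless stated. The first set shows, for Kalrn, Nav2 and Rgs3, the 300 bases at the center of the highest-scoring mets-only region, and for Dclk1 those of the second highest. Capitals mark matches to 6 motifs searched on both strands. TGACTCA is the motif of AP-1 (FOS and JUN factors). TGTTTAC is that of the FOXA pioneer factors. CAAAGTCCA is that of HNF4A and HNF4G. TGTGGTTT is that of the RUNX factors. ACATTCCA is that of the TEAD partners of YAP. AGATAAG is that of the GATA factors. The Kalrn and Dclk1 regions each held 2 AP-1 matches, and the Nav2 and Rgs3 regions held none of the 6. The highest-scoring Dclk1 region, not shown in this set, also held none of the 6 in its central 300 bases. A second Nav2 region, the third by score, is shown because it held an HNF4 match and was 90.3% identical to human sequence over 268 aligned bp. It was picked after its values were seen.
Kalrn, intron, mm10 chr16:34389799-34390098 (+): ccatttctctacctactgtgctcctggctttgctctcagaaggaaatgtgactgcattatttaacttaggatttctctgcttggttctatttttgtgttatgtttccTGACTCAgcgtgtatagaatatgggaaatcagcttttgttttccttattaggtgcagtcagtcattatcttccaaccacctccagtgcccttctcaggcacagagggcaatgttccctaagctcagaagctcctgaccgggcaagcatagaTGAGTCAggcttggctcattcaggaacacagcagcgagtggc
Dclk1, intron, mm10 chr3:55320645-55320944 (+): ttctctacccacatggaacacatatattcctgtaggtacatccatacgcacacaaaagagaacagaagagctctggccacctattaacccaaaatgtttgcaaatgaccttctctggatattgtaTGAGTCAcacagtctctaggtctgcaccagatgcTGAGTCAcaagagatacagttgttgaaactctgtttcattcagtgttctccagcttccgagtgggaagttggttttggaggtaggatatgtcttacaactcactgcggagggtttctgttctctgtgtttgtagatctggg
Nav2, upstream, mm10 chr7:48888121-48888420 (+): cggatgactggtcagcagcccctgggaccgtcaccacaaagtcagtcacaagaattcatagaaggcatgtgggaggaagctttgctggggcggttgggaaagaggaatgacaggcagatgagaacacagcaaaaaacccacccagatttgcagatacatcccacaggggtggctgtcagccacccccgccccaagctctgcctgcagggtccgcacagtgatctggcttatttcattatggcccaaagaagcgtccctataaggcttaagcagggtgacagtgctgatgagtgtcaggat
Nav2, intron, mm10 chr7:49318291-49318590 (+): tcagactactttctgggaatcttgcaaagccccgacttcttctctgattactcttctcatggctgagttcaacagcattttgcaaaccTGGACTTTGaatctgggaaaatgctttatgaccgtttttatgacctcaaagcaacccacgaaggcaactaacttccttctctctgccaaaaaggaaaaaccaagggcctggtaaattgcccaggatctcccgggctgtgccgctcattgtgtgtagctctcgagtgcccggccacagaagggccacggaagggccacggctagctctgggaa
Rgs3, exon of a noncoding transcript, mm10 chr4:62699488-62699787 (+): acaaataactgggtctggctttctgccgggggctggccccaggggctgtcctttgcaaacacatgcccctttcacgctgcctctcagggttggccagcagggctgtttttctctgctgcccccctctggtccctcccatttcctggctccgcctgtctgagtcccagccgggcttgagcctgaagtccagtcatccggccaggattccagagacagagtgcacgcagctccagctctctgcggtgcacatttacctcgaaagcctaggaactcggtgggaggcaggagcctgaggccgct

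The highest-scoring mets-only region at Dclk1 covered an internal start site of the gene, and the second set shows the 150 bases before that start site in mouse and before the internal start site of the human gene, each on the strand of the gene. Of these, 92 bases aligned between the species with 77 identical (83.7%). An AP-1 match stood in the aligned stretch of both and is in capitals. It ended 53 bases before the mouse start site and 101 bases before the human one, a distance set by where the annotation places the first base. Among all annotated start sites of protein-coding transcripts, 2.35% in mouse and 2.07% in human held an AP-1 match in the same 150 bases. Those start sites were counted whether or not a region covered them, while this one was chosen by its region. The shares are therefore no measure of how rare the match is.
Dclk1 internal promoter, mm10 chr3:55461578-55461727 (+): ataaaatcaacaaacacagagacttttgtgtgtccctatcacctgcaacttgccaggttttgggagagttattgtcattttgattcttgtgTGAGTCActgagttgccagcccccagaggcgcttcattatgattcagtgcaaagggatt
DCLK1 internal promoter, hg38 chr13:35855785-35855934 (-): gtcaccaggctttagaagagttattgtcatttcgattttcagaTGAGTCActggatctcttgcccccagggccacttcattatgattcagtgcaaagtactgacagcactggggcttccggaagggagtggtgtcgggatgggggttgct

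At the 5 mouse loci together, 73 of 139 mets regions were mets-only (52.5%, interval 44.3 to 60.6), against 20.2% of the whole mets list, a difference the choice of the loci fixes. The tumor-only count was not chosen in the same way but comes from the same pair of lists: 5 of 70 primary tumor regions (7.14%, 3.09 to 15.7) were tumor-only, against 8.51% of that list. The 5 were 1 at Kalrn and 4 at Nav2, and none scored above the 33.1 percentile. In the human pair, which the choice did not use, 41 of 158 control regions (25.9%, 19.7 to 33.3) were control-only, against 25.0% of the control list. KO-only regions numbered 6 among the 121 of the HNF4G-KO list (4.96%, 2.29 to 10.4), against 6.76% of that list. Both human shares lay near their backgrounds, with intervals that held them. Counts depended on list size: with both lists of a pair cut to equal size, mets-only regions numbered 52, tumor-only 9, control-only 20 and KO-only 13. With the upper 50% of each list they numbered 23, 2, 22 and 1. Sharing was read again in the cut lists, so a shared region whose partner was cut away became one-list. In the uncut lists, 12 mets-only, 0 tumor-only, 1 control-only and 0 KO-only regions stood above the 50 percentile. The 23 were 7 at Kalrn, 7 at Dclk1, 6 at Nav2, 2 at Carmil1 and 1 at Rgs3. In human, lists of equal size left 8 control-only regions at KALRN, 6 at NAV2, 3 at RGS3, 3 at CARMIL1 and 0 at DCLK1.

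**Figure D1:**
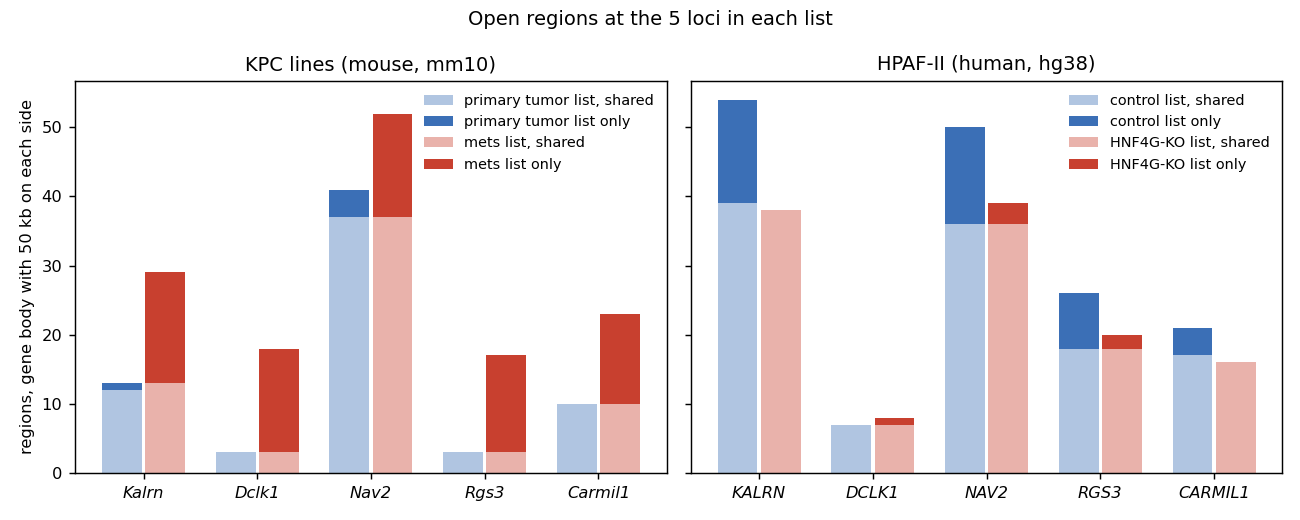
Number of regions (vertical axis) at each locus in the primary tumor and mets lists of the KPC lines (left) and in the control and HNF4G-KO lists of HPAF-II (right), with shared regions in pale and one-list regions in full color. Mets bars stand above primary tumor bars at all 5 loci, and HNF4G-KO bars stand below control bars at 4 loci, DCLK1 being the exception with 7 control and 8 HNF4G-KO regions.

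Ranked by the number of mets-only regions in the same window among 21911 mouse protein-coding genes, Kalrn stood at place 5, Dclk1 and Nav2 at 7, Rgs3 at 11 and Carmil1 at 16. Long genes have wide windows: per 100 kb of window the order became Rgs3 (place 55), Dclk1 (417), Carmil1 (594), Kalrn (2221) and Nav2 (3476).

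Mets-only regions at these loci were mostly weak, and their scores differed between loci. Their median percentile was 31.0, against 19.4 for all mets-only regions and 59.9 for the shared mets regions of the same loci. By locus it was 45.9 at Dclk1, 39.6 at Kalrn and 22.1 at Rgs3, and below the 19.4 at Nav2 (18.5) and Carmil1 (15.0). Their median width was 320 bp, against 272 bp for all mets-only regions. Of the 73, 12 stood above the 50 percentile of the mets list (5 at Dclk1, 4 at Kalrn and 1 at each other locus), and 10.3% of all mets-only regions were. By position, 50 had their center in an intron, 5 in an exon and 18 outside the gene, and 14 (19.2%) lay within 1 kb of an annotated start site of any gene, against 17 of 66 shared regions (25.8%). The gene body made up most of each window (144 of 244 kb at Rgs3, 701 of 801 kb at Nav2). The intronic count is therefore not read as a trait of these regions, and no intronic share of all mets-only regions was computed.

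Shared regions were read by their percentile in each list of the pair. At the 5 mouse loci, 45 of 66 shared mets regions ranked higher in mets than in the primary tumor list (68.2%), near the 62.9% of all shared mets regions, and the median change was 3.70 percentile points (3.16 over all). The medians of single loci spread widely, but both ends rest on 3 regions. They were 64.1 points at Dclk1 (3 regions), 8.62 at Kalrn (13), 3.00 at Carmil1 (10), 2.91 at Nav2 (37) and -4.31 at Rgs3 (3). Those 3 regions of the Rgs3 window lay upstream of the gene, at start sites of Alad and Pole3. At the human loci, 86 of 117 shared control regions (73.5%) had a lower rank in HNF4G-KO, near the 70.0% of all, and the median change was -5.23 (-4.65 over all). Because percentiles depend on how many weak regions a list holds, these changes were also read among shared regions alone, where the medians became 1.70 in the KPC pair and -1.29 in the HPAF-II pair. No value over all shared regions is given on that scale, so these medians have no background beside them. On that scale the locus medians were 59.6 at Dclk1, 7.28 at Kalrn, 1.41 at Nav2, 0.45 at Carmil1 and -7.94 at Rgs3. In human they were -4.62 at DCLK1 (7 regions), -2.47 at NAV2 (36), -0.78 at KALRN (39) and -0.50 at RGS3 (18). At CARMIL1 (17) the sign turned, from -2.94 to 0.73.

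**Figure D2:**
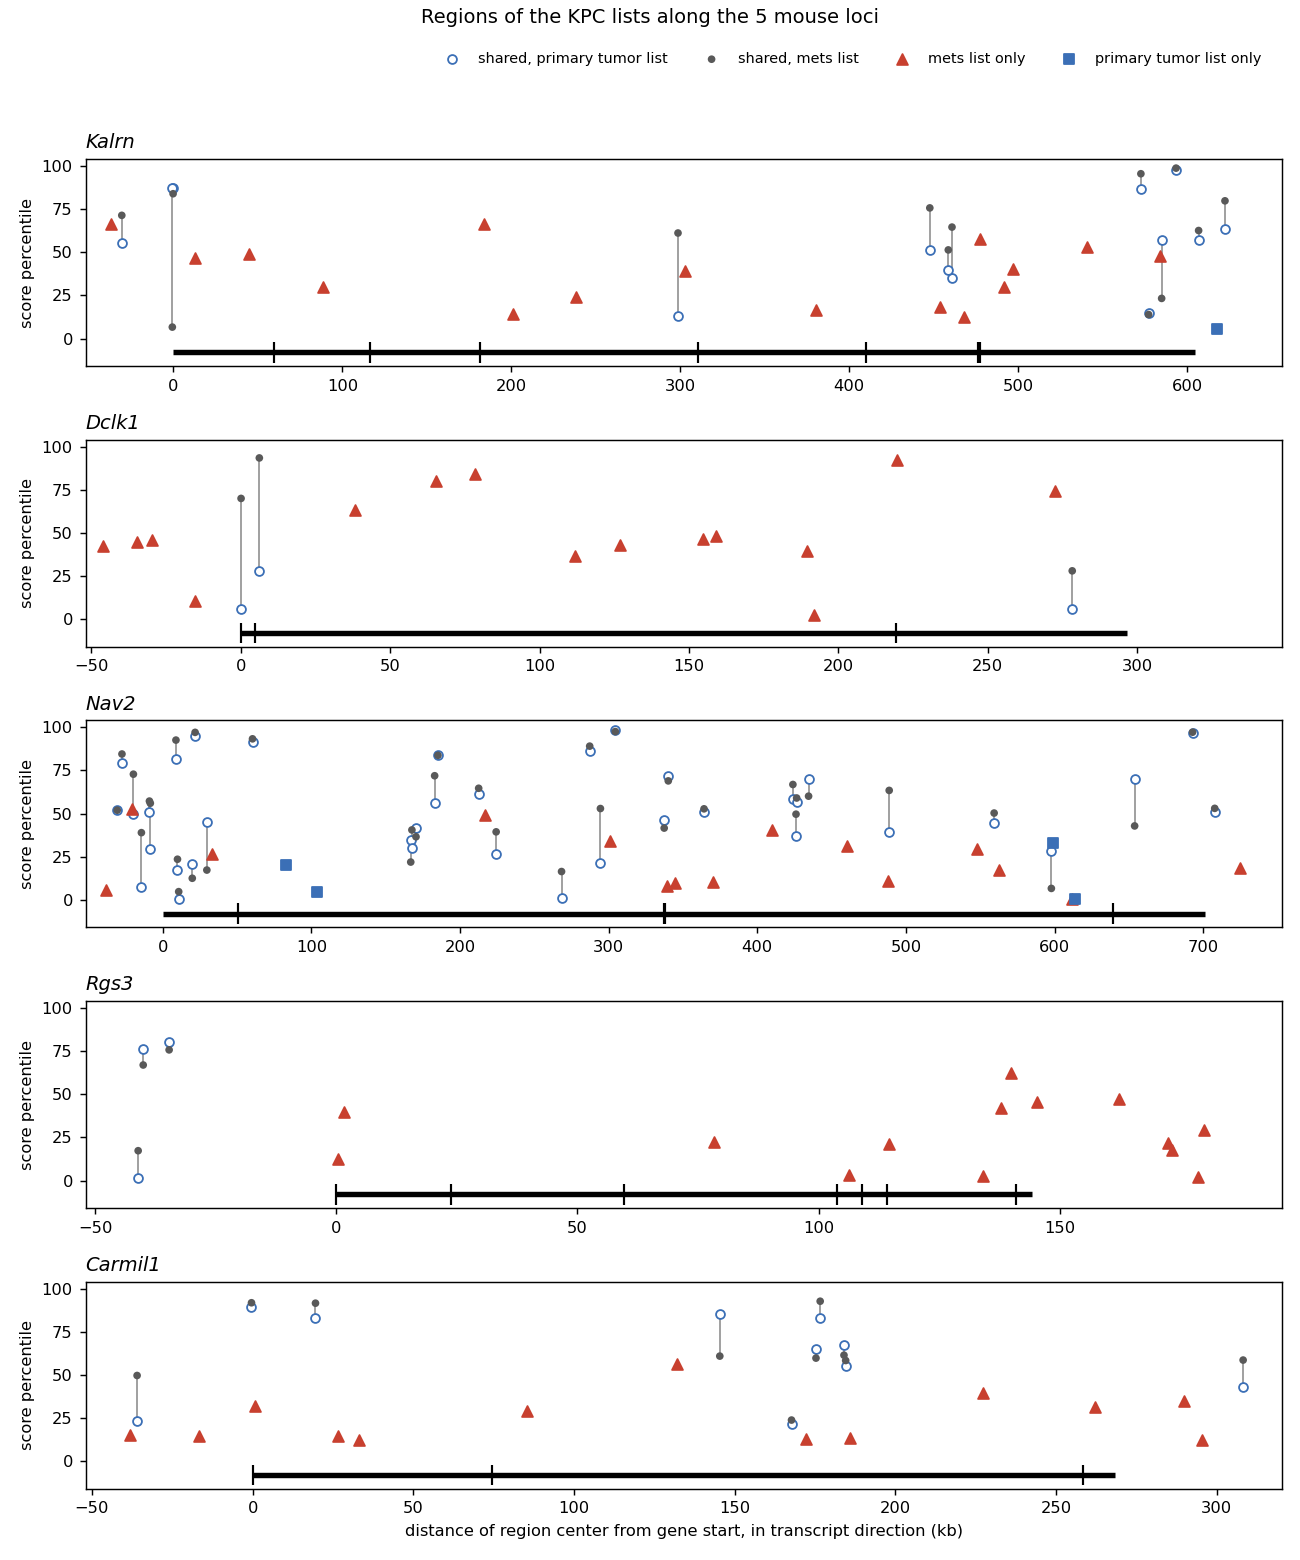
Score percentile within its own list (vertical axis) of each KPC region against the distance of its center from the gene start in the direction of transcription, in kb (horizontal axis), with the gene as a black bar and start sites of coding transcripts as ticks. Gray lines join the primary tumor (open circle) and mets (filled circle) percentiles of a shared region, red triangles are mets-only and blue squares tumor-only regions. Dclk1 and Rgs3 are filled by triangles, and all 3 shared Dclk1 regions move upward.

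Dclk1 had the highest mets-only share of the 5 loci and the largest shift of its shared regions. The gene lies at mm10 chr3:55242364-55539068 on the plus strand (ENSMUSG00000027797), and its window held 3 primary tumor regions and 18 mets regions, of which 15 were mets-only (83.3%, 60.8 to 94.2). The 3 shared regions were weak in the primary tumor list and stronger in mets. The mets region over the first start site stood at the 70.0 percentile, and the primary tumor region it overlapped, at 5.83, was narrower and ended before that site. The region next to the second start site, 4.71 kb into the gene, went from 28.1 to 93.4, and an intronic region 278 kb into the gene went from 5.83 to 28.0. Between the second start site and that last region lay a run of 11 neighboring mets-only regions that spanned 235 kb with no region of the primary tumor list among them.

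Within that run, the strongest region, at the 92.2 percentile (mm10 chr3:55461576-55462166), covered the internal start site 219 kb into the gene, from which 7 coding transcripts are annotated. Its promoter sequence is the mouse one shown above. The next in score were intronic regions 78.4 kb (84.4 percentile) and 65.4 kb (79.8) from the gene start, both with AP-1 matches, and a region 273 kb in (74.3) with an AP-1 and a GATA match. The weakest of the 11 stood at 2.34. A further 4 mets-only regions lay upstream of the gene, 15.2 to 46.3 kb before its start, at percentiles of 10.5 to 45.9. All 3 start sites of coding Dclk1 transcripts were thus within 1 kb of a mets region, and 2 of them within 1 kb of a primary tumor region, at 5.83 and 28.1.

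Human DCLK1 (hg38 chr13:35768652-36131382, minus strand, ENSG00000133083) showed only the internal promoter in both HPAF-II lists. Its first start site had no region within 1 kb in either list. The internal start site, 276 kb into the gene with 3 coding transcripts, carried the strongest region of the locus, at the 97.7 percentile in control and 95.6 in HNF4G-KO. The mouse mets-only region over the internal start site aligned to this human region at 76.2% identity over 568 bp. None of the 7 control regions was control-only, and 1 of 8 HNF4G-KO regions was KO-only, a weak one (18.8 percentile) beside the internal start site. Of the 7 shared regions 6 ranked lower in HNF4G-KO (85.7%, against 70.0% of all shared control regions), with a median change of -15.0 points, or -4.62 among shared regions alone. The lowest in HNF4G-KO relative to control was an intronic region with an AP-1 match (chr13:35927623-35928081), at 47.8 in control and 3.58 in HNF4G-KO.

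Rgs3 (mm10 chr4:62559847-62704001, plus strand, ENSMUSG00000059810) had no primary tumor region in the gene at all. The 3 shared regions of its window lay 34.7 to 41.1 kb upstream, at the start sites of Alad, a heme synthesis enzyme, and Pole3, a histone-fold subunit of DNA polymerase epsilon. They stood at percentiles of 1.35, 76.4 and 80.0 in the primary tumor list and 17.3, 66.9 and 75.7 in mets. From the gene start onward, all 14 regions were mets-only and formed 1 uninterrupted run of 180 kb. The run went beyond the gene, which is 144 kb long: 6 of the 14 lay downstream, and 8 remained with the gene body alone. The 14 were weaker than those at Dclk1, with a median percentile of 22.1 and a single region above 50, at 62.2 (mm10 chr4:62699469-62699806, shown above). That region lay 140 kb into the gene within 1 kb of the last coding start site. A region just inside the first start site (12.5) and one over the site 114 kb in (21.3) were also in the mets list, so 3 of 7 start sites of coding Rgs3 transcripts had a mets region within 1 kb and none had a primary tumor region.

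In HPAF-II, RGS3 (hg38 chr9:113444731-113597743, plus strand, ENSG00000138835) had a region within 1 kb of 6 of 11 start sites of coding transcripts in both lists. The site 19.0 kb into the gene stood at 92.8 in control and 89.5 in HNF4G-KO, and the site 120 kb in at 88.5 and 90.0. A noncoding start site 34.1 kb in was covered in control only, by a region at the 8.97 percentile. Of 26 control regions 8 were control-only, the strongest at 26.5. The HNF4G-KO list held 20 regions here, 2 of them KO-only. Of the 14 mouse mets-only regions, 9 aligned to the human locus, and 5 of the 9 fell in a region of both HPAF-II lists. Those 5 included the strongest mouse region, which matched the human region at the start site 149 kb in (86.4% identity over 235 bp, percentiles of 68.4 in control and 61.6 in HNF4G-KO), and the mouse region 114 kb in, which matched the human one 120 kb in (85.7% over 266 bp).

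Kalrn (mm10 chr16:33969073-34573532, minus strand, ENSMUSG00000061751) had an open first start site in both lists and mets-only regions along its introns. The region at the gene start, from which a single noncoding transcript is annotated, stood at 87.4 in the primary tumor list and 83.9 in mets. A second mets region (6.63 percentile) overlapped the same primary tumor region. The primary tumor list thus held 1 wide region where the mets list held 2 narrower ones, and the change of -80.8 points of the second came from that split. Of 29 mets regions 16 were mets-only (55.2%, 37.5 to 71.6), and the longest run was 6 regions over 226 kb between 13.0 and 238 kb from the gene start. The strongest were an intronic region 184 kb in, shown above, and a region 36.7 kb upstream, both at 66.4.

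The third by score at Kalrn, at 57.7 (mm10 chr16:34095496-34096200), covered an internal start site 478 kb into the gene, with 3 coding transcripts, and lay within 1 kb of another 476 kb in. No primary tumor region lay within 1 kb of either. None of the 7 start sites of coding Kalrn transcripts had a primary tumor region, and these 2 had a mets region. Most of the other shared regions stood in the 3′ part of the gene. The strongest, 593 kb in (97.6 in primary tumor, 98.7 in mets), held FOXA and AP-1 matches, and a region 299 kb in stood at 13.1 in primary tumor and 61.1 in mets, the largest upward difference of the locus.

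Human KALRN (hg38 chr3:124033369-124726325, plus strand, ENSG00000160145) was open at its first coding start site (88.0 in control, 88.7 in HNF4G-KO) and at an internal one 551 kb in with 3 coding transcripts (78.4 and 81.7). The mouse mets-only region over the internal start site aligned to the second of these at 80.1% identity over 376 bp. Of 54 control regions 15 were control-only, none above the 36.1 percentile. The 38 HNF4G-KO regions were all shared. Among 39 shared control regions 25 ranked lower in HNF4G-KO (64.1%, below the 70.0% of all), with a median change of -6.11. Among shared regions alone 21 of the 39 did, with a median of -0.78 and no share of all shared regions to set beside it. The largest difference was 668 kb into the gene (chr3:124700955-124701300), at 52.3 in control and 2.35 in HNF4G-KO. The neighbor genes UMPS and ITGB5, an enzyme of pyrimidine synthesis and an integrin subunit, had regions within 1 kb of a start site. These stood at 96.0 and 79.8 in control and at 90.8 and 81.7 in HNF4G-KO. The ITGB5 site is an internal one, and the start of that gene lies outside the window.

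Carmil1 (mm10 chr13:24012344-24280795, minus strand, ENSMUSG00000021338) differed between the lists mostly away from its start sites, with 2 of its 13 mets-only regions within 1 kb of any of them. Its first start site, with 3 coding transcripts, was open in both lists (89.1 in primary tumor, 91.8 in mets), and a mets-only region at 32.2 stood 0.63 kb into the gene beside it. No other coding start site was covered in either list. Of 23 mets regions 13 were mets-only (56.5%, 36.8 to 74.4), with a median percentile of 15.0, and 6 with lists of equal size. The strongest, at 56.2, lay in an intron 132 kb in and held HNF4 and AP-1 matches. The second (39.7) lay 227 kb in, and the third (34.9) at the start of Scgn, a calcium-binding protein gene downstream. The longest run was 5 regions over 110 kb at the 3′ end of the gene and beyond it.

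Human CARMIL1 (hg38 chr6:25279078-25620530, plus strand, ENSG00000079691) was open at its first start site at 91.0 in control and 93.1 in HNF4G-KO. Of 21 control regions 4 were control-only, up to the 33.0 percentile, and all 16 HNF4G-KO regions were shared. The largest difference was 58.1 kb into the gene, at 35.5 in control and 3.22 in HNF4G-KO. Of the 13 mouse mets-only regions 5 aligned to the human locus, and none of these fell in an HPAF-II region.

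Nav2 (mm10 chr7:48908716-49610090, plus strand, ENSMUSG00000052512) was the locus where the primary tumor list was already dense, with 41 regions against 52 in mets. Of the mets regions 15 were mets-only (28.8%, 18.3 to 42.3), the lowest share of the 5, and they never stood more than 2 in a row. With lists of equal size 9 were. The strongest were a region 20.4 kb upstream, near E2f8, which encodes a cell cycle transcription repressor (52.7), an intronic region 217 kb in (49.4), and the HNF4-matching region 410 kb in shown above (40.8). The same coding start sites were covered in both lists: the pair 337 and 338 kb into the gene stood at 46.5 in the primary tumor list and 41.6 in mets. A weak mets-only region (7.81 percentile) also lay within 1 kb of the site 338 kb in. The other 2 coding start sites had no region in either list. The strongest shared regions stayed at the top of both lists, for example the one 304 kb in at 98.5 in the primary tumor and 97.5 in mets.

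Human NAV2 (hg38 chr11:19350724-20121601, plus strand, ENSG00000166833) had 14 control-only regions among 50 and 3 KO-only regions among 39. The strongest control-only region of the 5 loci was here, at 55.6, in an intron 23.7 kb into the gene with an AP-1 match (chr11:19374175-19374582). The shared region just upstream of it stood at 79.6 in control and 41.2 in HNF4G-KO. Of 36 shared control regions 30 ranked lower in HNF4G-KO (83.3%, against 70.0% of all), with a median change of -7.50. Among shared regions alone 21 of the 36 did, with a median of -2.47, again with no share of all shared regions beside it. The coding start sites 362 and 363 kb in shared a region at 81.1 in control and 87.4 in HNF4G-KO, and the site at the gene start had none in either list.

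**Figure D3:**
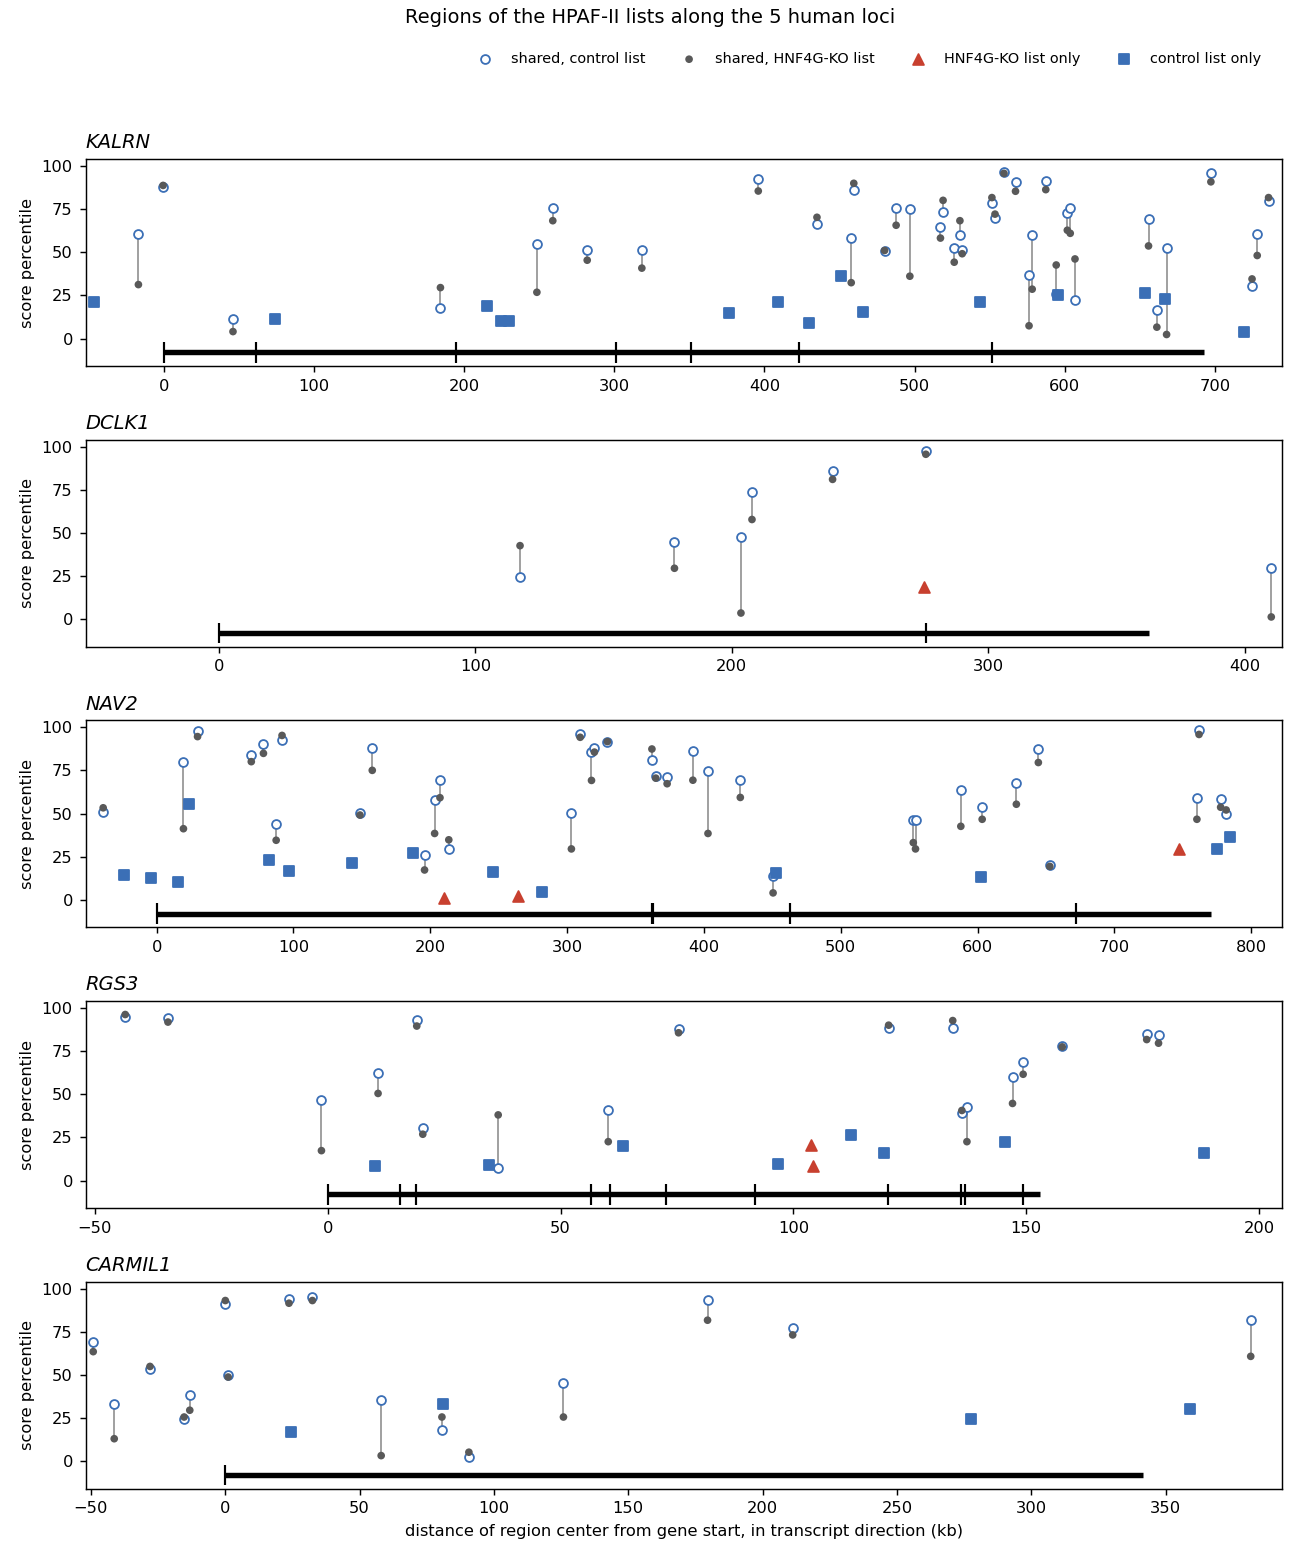
Score percentile within its own list (vertical axis) of each HPAF-II region against the distance of its center from the gene start in kb (horizontal axis), with the gene as a black bar and start sites of coding transcripts as ticks. Gray lines join the control (open circle) and HNF4G-KO (filled circle) percentiles of shared regions, blue squares are control-only and red triangles KO-only. Most lines run downward from control, and most squares lie below the 40 percentile line, with 1 NAV2 region at 55.6 above it.

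Over the 5 human genes, the number of coding start sites with a region within 1 kb was the same in both HPAF-II lists (2 of 7 for KALRN, 1 of 2 for DCLK1, 2 of 5 for NAV2, 6 of 11 for RGS3 and 1 of 1 for CARMIL1). In the KPC lists it was 0 of 7 in primary tumor and 2 of 7 in mets for Kalrn, 2 and 3 of 3 for Dclk1 and 0 and 3 of 7 for Rgs3, and was 2 of 4 for Nav2 and 1 of 3 for Carmil1 in both. Every coding start site with a region in mets alone had it from a mets-only region, the class by which the loci were chosen. That KPC difference is therefore part of the choice, unlike the human counts. No share over all coding start sites was computed. Start sites within 500 bp of each other were counted as 1.

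Sequence features, which the choice of loci did not use, were read in the 300 bp around each region center. AP-1 was found in 30 of the 73 (41.1%, 30.5 to 52.6). Over all mets-only regions the share was 32.4%, inside that interval. In 200 bp the share was 37.0% (26.8 to 48.5) at the loci and 29.0% over all, inside the interval. Over whole regions it was 45.2% (34.3 to 56.6) at the loci and 33.3% over all, outside the interval. Regions at the loci were wider, with a median of 320 bp against 272 bp over all, so more sequence was searched in them. The part of width in this difference was not tested. In the 66 shared mets regions at the loci the share in 300 bp was 30.3% (20.6 to 42.2), with overlapping intervals. HNF4 was in 3 of the 73 (4.11%, 1.41 to 11.4), against 0.86% of all mets-only regions, which lay below the interval, and the 3 were 1 region at Nav2 and 2 at Carmil1. FOXA was in 2 (2.74%, 0.75 to 9.45) against 7.47%, RUNX in 1 (1.37%, 0.24 to 7.36) against 6.61%, and GATA in 4 (5.48%, 2.15 to 13.3) against 4.96%. TEAD was in 0 of 73, which allows a share of up to 4.11% where the limit is set at 3 counts (the Wilson bound is 5.0%), against 3.44%. In the human pair, 11 of 41 control-only regions held AP-1 (26.8%, 15.7 to 41.9) against 22.7% of all control-only regions, and 0 of 41 held HNF4, which by the same limit of 3 counts allows up to 7.32% (Wilson 8.57%), against 1.35%.

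The mouse regions were also matched to the human loci by sequence alignment. Of the 73 mets-only regions 41 (56.2%) aligned to the orthologous human locus, a share close to that of shared mets regions, at 36 of 66 (54.5%). The best match anywhere in the human window was taken, so a match need not be the orthologous site. Among mets-only matches, 9 of 10 at Kalrn and 8 of 9 at Rgs3 kept the order of the mouse regions, and all did at the other loci. Among those that aligned, 11 of 41 mets-only (26.8%) and 16 of 36 shared regions (44.4%) fell in a control region of HPAF-II, and 10 and 15 of these in an HNF4G-KO region as well. By locus, mets-only matches in control regions were 5 at Rgs3, 3 at Kalrn, 2 at Dclk1, 1 at Nav2 and 0 at Carmil1. Only 1 fell in a control-only region, an intronic match 215 kb into KALRN at the 19.1 percentile. The match at Nav2 that fell in a control region rested on 30 aligned bp.

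The surroundings of the loci were not alike. In the 1 Mb outside each window, 40 of 97 mets regions around Rgs3 were mets-only (41.2%, 32.0 to 51.2) and 17 of 50 around Dclk1 (34.0%, 22.4 to 47.8), above the 19.5% and 22.0% of their chromosomes. Around Kalrn the share was 14 of 94 (14.9%), around Nav2 5 of 20 (25.0%) and around Carmil1 35 of 148 (23.6%), against 18.6%, 18.2% and 29.4% of their chromosomes. Copy number and its part in these shares were not tested.

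Paralogs and partners of the 5 genes, taken from a list and measured in the same windows, were mets-only at shares near or below that of the whole list. For 15 paralogs (TRIO, DCLK2, DCLK3, DCX, NAV1, NAV3, 7 other RGS genes, CARMIL2 and CARMIL3) 28 of 154 mets regions were mets-only (18.2%, against 20.2% of the mets list) and 5 of 128 primary tumor regions tumor-only (3.91%, against 8.51%), with a region near more than 1 gene counted for each. Single paralogs ranged widely. Trio, the closest relative of Kalrn, had 2 of 32, Nav1 had 8 of 27, and the small Rgs2 and Rgs8 loci had 4 of 8 and 4 of 6. For 7 partners (the small GTPase genes RAC1, RHOA and RHOG, the kinase gene PAK1, and the capping protein genes CAPZA1, CAPZA2 and CAPZB) the mets-only share was 11 of 98 (11.2%). In HPAF-II, where 25.0% of the control list was control-only, the share was 51 of 173 for the paralogs (29.5%) and 22 of 117 for the partners (18.8%), with 14 of 41 at TRIO, 12 of 27 at NAV3 and 7 of 11 at DCLK2.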

How the data were processed

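ATAC-seq lists of accessible regions were analysed, 1 per group of 4 replicates. The deposited score of each region was given by the authors on a scale not stated, and was ranked within its own list only. Per the submitters' processing notes, tools were Bowtie2 2.2.6, MACS2 2.1.1.20160309 and DiffBind with hg38 and mm10, without roles. The peak threshold, read shift and replicate handling for ATAC-seq are not given in the sources used here, and the study's methods name only HPAF-II for Omni-ATAC. Lists without per-replicate values allow no test, and the pooled score was used as deposited.

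Regions overlapping each gene with 50 kb on each side were taken with GENCODE 44 (human) and M21 (mouse), and start sites within 500 bp were joined. Coordinates are 1-based, and all regions ended inside hg38 or mm10 chromosomes. Sharing needed 1 bp of overlap, and each shared region was paired with its longest overlap. Sequence matches used blastn of BLAST+ 2.17.0 (E-value 1e-05, repeats of the mouse masked), local alignment of the promoters Biopython 1.88, and other steps Python 3.11.15 with pandas 2.3.3 and scipy 1.17.1. Overlap and motif steps were tested on simulated lists. The members, gene lists, motifs and windows were chosen with earlier results of these data known. Named besides the 5 genes are their paralogs, partners, neighbor genes with a region at their start, and, per locus, the strongest regions of each class, those at start sites and the longest run. For Dclk1 the strongest region overlaps an untranslated exon and its upstream bases are shown instead. Alternatives covered overlap, score threshold, list size, window and width. One sequence is not reported here.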

Additional observations from a re-analysis of the deposited data

How the results depend on the processing

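No paired analysis was possible because each group came as a single list with no values per replicate, and for the same reason leaving out a replicate was not run. Mets-only regions numbered 73 in the main setting and 23 with the upper 50% of each list by score. The 23 include shared regions whose partner fell below the cut, and only 12 of the 73 stood above the 50 percentile. The count ranged from 52 to 87 under the other 7 alternatives (50% overlap of the shorter region, regions within 500 bp counted as shared, lists of equal size, the gene body alone, 10 kb or 100 kb on each side, and regions of at least 150 bp). With the upper 50% of each list, tumor-only regions went from 5 to 2, control-only from 41 to 22 and KO-only from 6 to 1. These counts too include regions that lost their partner to the cut: of the 41 control-only regions 1 stood above the 50 percentile. With lists of equal size, tumor-only regions went to 9, control-only to 20 and KO-only to 13, so that the control-only and KO-only counts depend on how many weak regions the control list holds. The median rank change of shared HPAF-II regions went from -5.23 to -1.29 when percentiles were taken among shared regions, and kept its sign, as did the KPC change (1.70 to 5.42), although the median at CARMIL1 alone turned from -2.94 to 0.73. The motif shares at the loci stayed within their 300 bp intervals with a 200 bp window or the whole region. Over whole regions, however, the AP-1 share of all mets-only regions (33.3%) fell outside the interval of the loci (45.2%, 34.3 to 56.6). Mets-only regions at the loci were wider (median 320 bp against 272 bp over all), so whole regions compare unlike lengths of sequence. Read depth is unknown, and it limits how far the absence of a region from a list can be read as closed chromatin.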
